A study of Caenorhabditis elegans with 18 samples.

Results

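nhr-10 and nhr-68, Caenorhabditis elegans genes for nuclear hormone receptors, were followed by transcript through all 18 libraries of a study with deletion mutants of each. They were picked by name and WormBase identifier (WBGene00003609 and WBGene00003658), with earlier results of these data known. They are 2 of the 20953 genes in the table and 2 of its 257 genes with an nhr- symbol. Whole L4 larvae, the last larval stage, were sequenced at about 3000 animals per library, with 2 libraries for each of 9 groups made by crossing 3 genotypes with 3 treatments. The genotypes were N2, the laboratory wild type; a deletion in nhr-10, allele tm4695, for which the labels name no strain; and a deletion in nhr-68, allele gk708, in strain VC1527. Animals stayed untreated on plates without added vitamin B12, received 20 nM vitamin B12, or received 20 nM vitamin B12 together with 40 mM propionate, for 48 hours. Before that every group was raised on B12-free plates and came from L1 larvae arrested for 18 hours; names of untreated samples carry OP50, the usual Escherichia coli food strain. The labels say neither which stretch of either gene is missing, nor whether the mutants were outcrossed, nor that the 2 libraries of a group came from separate cultures, so p-values measure the spread between these libraries, which may be technical.

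Nuclear hormone receptors are transcription factors that bind DNA through a zinc finger domain and often respond to small lipophilic molecules or metabolites. The family is greatly expanded in nematodes, and many members act in the intestine, the animal's main metabolic organ. Propionate, a short-chain fatty acid a product of the breakdown of certain amino acids and of odd-chain fatty acids, is normally cleared by a pathway that needs vitamin B12. When B12 is scarce and propionate builds up, the animal turns on a B12-independent route, the propionate shunt, and nhr-10 and nhr-68 are known as regulators that this switch requires. The study's title names a persistence detector, a circuit that answers to a lasting signal. The comparisons below ask what B12 and propionate do to the transcript of each receptor. They also ask what a deletion in either receptor gene does to the transcript of the other.

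nhr-10 lies on chromosome III from 7112295 to 7115438 on the minus strand of WBcel235 and has 1 annotated transcript of 7 exons, 1546 bp in all. nhr-68 lies on chromosome V from 11573440 to 11575709 on the plus strand. Its annotated transcripts are H12C20.3a, with 8 exons and 1333 bp, and H12C20.3b, with 3 exons and 312 bp between 11575033 and 11575554, in the part of the gene near its 3′ end. The deposited values are 1 per gene and do not tell the nhr-68 transcripts apart. No other annotated gene overlaps either of them. Levels are in FPKM, that is, fragments divided by gene length and by the library's total, so levels of different genes can be set side by side per length. Differences are on the log2(FPKM + 1) scale, from a limma fit over 15575 genes, and a gene is called where the Benjamini-Hochberg adjusted p over those genes is under 0.05.

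The libraries held an estimated 12900000 to 14500000 fragments, and 13753 to 14732 genes reached 1 FPKM in each. Pearson's r across genes between replicates lay between 0.9695 and 0.9859. All 7 intestine markers were detected in every library, with a summed level between 1065 and 1893 FPKM. Over the 9 treatment comparisons within a genotype limma called 0 of 63 tests of these genes, of which 10 had an unadjusted p under 0.05. The share of all genes called in these comparisons ran from 0.295% to 7.24%. Genes that follow larval stage varied more. The summed level of 6 vitellogenins, yolk proteins of the adult intestine, ran from 103.8 to 9653 FPKM and that of 6 moulting genes from 91.74 to 1056 FPKM, with replicates of a group far apart in places. About 124 to 675 fragments stood behind an nhr-10 value and about 32 to 2466 behind an nhr-68 value. The spread between the 2 libraries of a group was wider than counting error in 8 of 9 groups for nhr-10 and in 7 of 9 for nhr-68.

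nhr-10 was a moderately expressed receptor, and no treatment comparison of it was called. In wild type it stood at 17.23 and 15.08 FPKM untreated. On B12 the wild type libraries read 19.78 and 12.23 FPKM, and on B12 with propionate 33.45 and 14.88 FPKM. The 3 wild type groups overlapped, and the highest value of the series came from a group whose other library read less than the untreated ones. In nhr-68 mutants nhr-10 was at 18.86 and 21.82 FPKM untreated, 20.36 and 18.64 FPKM on B12, and 16.9 and 20.12 FPKM on B12 with propionate, and these groups overlapped too.

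By limma 0 of the 9 treatment comparisons of nhr-10 were called, and 0 had an unadjusted p under 0.05. Their log2 differences ran from -0.13 to 0.50, with adjusted p between 0.416 and 1. In wild type the B12 difference was -0.05 ± 0.32 (SE), with a 95% interval from -0.73 to 0.64. Adding propionate to B12 gave 0.50 ± 0.32 in wild type, with an interval from -0.19 to 1.18. That last difference turned to -0.06 without replicate 1 of the wild type on B12 with propionate. Over the means of the 3 genotypes the B12 difference was -0.06 (95% interval -0.46 to 0.33) and the propionate difference 0.27 (-0.13 to 0.66). An exact permutation test of the libraries within genotype gave two-sided p = 0.657 and 0.25 for these.

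A deletion in nhr-68 was not followed by a called difference in nhr-10. nhr-68 mutants held 126% of the wild type mean of nhr-10 untreated, 122% with B12 and 76.6% with B12 and propionate. The log2 differences were 0.31, 0.30 and -0.27, with limma adjusted p = 0.596, 0.593 and 0.678. Over the mean of the treatments the difference was 0.12 ± 0.18 (SE), with a 95% interval from -0.28 to 0.51, adjusted p = 0.662, and the exact permutation test within treatment gave p = 0.611. The sign of the mean turned, to -0.07, without replicate 2 of the wild type on B12 with propionate.

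In its own mutants the nhr-10 transcript fell and was not lost. The nhr-10 mutants read 6.14 and 9.9 FPKM untreated, 7.25 and 7.4 FPKM on B12, and 9.29 and 10.33 FPKM on B12 with propionate. All 6 libraries lay below all 12 libraries of the other genotypes, of which the lowest was a wild type library at 12.23 FPKM. These values are 49.6%, 45.8% and 40.6% of the wild type means in the same treatments. Over the mean of the treatments the log2 difference from wild type was -1.02 ± 0.18 (SE), limma adjusted p = 0.00288, in a comparison in which 15.3% of all tested genes were called. The exact permutation test gave p = 0.00926, the smallest it can give, and 0.0185 after adjustment over the 12 such tests run on both receptors. Within single treatments the differences of -0.96, -0.99 and -1.12 were not called. The call over the mean was lost, at -0.89 and adjusted p = 0.653, when 2 axes of stage-dependent genes entered the fit. Where on the gene the remaining fragments fall was not analysed here.

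**Figure D1:**
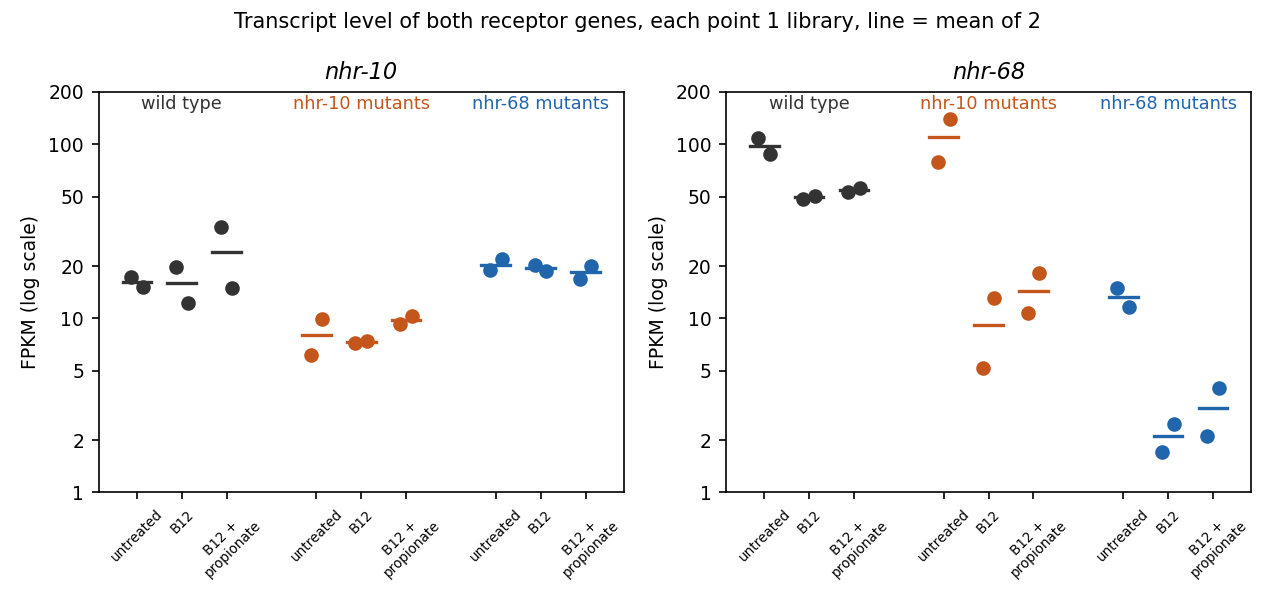
Transcript level of nhr-10 (left) and nhr-68 (right) in FPKM on a log axis, by genotype and treatment, with 1 point for each library and a line at the mean of the 2 libraries. nhr-10 differed by genotype and stayed between 6.14 and 33.45 FPKM, while nhr-68 ran from 1.71 FPKM in nhr-68 mutants on B12 to 140.2 FPKM in untreated nhr-10 mutants.

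nhr-68 was among the most abundant receptors and was lower wherever B12 had been given. Untreated wild type animals held 108.25 and 88.46 FPKM. On B12 the wild type libraries read 48.69 and 50.37 FPKM, or 50.4% of the untreated mean, and each of them lay below both untreated libraries. The log2 difference was -0.97 ± 0.38 (SE), with a 95% interval from -1.80 to -0.14. It was not called (limma adjusted p = 0.487; unadjusted p = 0.0252), in a comparison that called 0.616% of all tested genes.

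In nhr-10 mutants the nhr-68 transcript fell on B12 to a small share of its untreated level. Untreated nhr-10 mutants held 79.06 and 140.23 FPKM, a range that encloses both wild type values. On B12 the same mutants read 5.18 and 13.06 FPKM, 8.32% of their untreated mean. The difference was -3.51 ± 0.38 (SE), limma adjusted p = 0.000625, where 0.783% of all genes were called, and by p nhr-68 ranked 14 among the 15575. The call held without any one of the 4 libraries (adjusted p between 0.00077 and 0.0133) and was lost, at adjusted p = 0.225, when the fit held the compared groups alone, with 2 residual degrees of freedom.

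The transcript that remained in nhr-68 mutants was lower on B12 as well. These mutants read 14.95 and 11.6 FPKM untreated and 1.71 and 2.49 FPKM on B12, 15.8% of their untreated mean. The difference was -2.20 ± 0.38 (SE), limma adjusted p = 0.0148, where 0.751% of all genes were called. Leaving out any one of the 4 libraries ended the call (adjusted p between 0.074 and 0.18) with the difference between -2.39 and -2.02. Over the mean of the 3 genotypes the B12 difference of nhr-68 was -2.23 ± 0.22 (SE), limma adjusted p = 7.85e-05, where 2.65% of genes were called. The exact permutation test within genotype gave p = 0.00926, its smallest possible value. In each of the 3 genotypes both B12 libraries lay below both untreated ones.

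The B12 response of nhr-68 in nhr-10 mutants differed from that in wild type by -2.54 ± 0.54 (SE) on the log2 scale, with a 95% interval from -3.71 to -1.37. This difference of differences was not called across all genes (limma adjusted p = 0.207; unadjusted p = 0.000439), in a test that called 0.0257% of genes, and nhr-68 ranked 33 in it. The corresponding difference between nhr-68 mutants and wild type was -1.24 ± 0.54, adjusted p = 0.834, where 0.00642% of genes were called. Between the mutants it was 1.31 ± 0.54, adjusted p = 1, where 0.0193% were called. For B12 with propionate against untreated, the response in nhr-10 mutants differed from that in wild type by -1.997 (adjusted p = 0.235), where 0.0899% were called. These contrasts share libraries.

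No genotype showed a called rise of nhr-68 with propionate. Wild type on B12 with propionate read 53.54 and 55.94 FPKM, above the 2 wild type B12 libraries and far below the untreated ones. The log2 difference from B12 was 0.14 ± 0.38 (SE), with a 95% interval from -0.69 to 0.97 and limma adjusted p = 0.882. The nhr-10 mutants with propionate read 10.75 and 18.19 FPKM, a range that overlaps B12, and the difference of 0.69 was not called (adjusted p = 0.298). It was 0.095 without the first B12 library of these mutants (replicate 1) and 1.28 without replicate 2. The nhr-68 mutants read 2.1 and 3.99 FPKM, again overlapping B12, with a difference of 0.35 (adjusted p = 0.805). That was 0.698 without replicate 1 of the nhr-68 mutants with propionate and 0.012 without replicate 2 of them. Over the 3 genotypes the propionate difference was 0.39, with an interval from -0.08 to 0.87 and an exact permutation p = 0.157.

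Against untreated animals, B12 with propionate thus left nhr-68 lower by values close to those of B12. In wild type the mean was 55.7% of the untreated mean, with a log2 difference of -0.83 (limma adjusted p = 0.817; unadjusted p = 0.0499), where 0.295% of genes were called. In nhr-10 mutants it was 13.2%, with a difference of -2.82, adjusted p = 0.00261, where 1.43% of genes were called, and the call was lost with the compared groups alone (adjusted p = 0.201). In nhr-68 mutants it was 22.9%, with -1.85 and adjusted p = 0.0684, where 0.475% were called. That difference passed under 3 of 7 other settings, namely median-ratio scaling (adjusted p = 0.0375), the replicate block (0.0293) and the stage axes (-1.97, 0.0087). Over the 3 genotypes the difference was -1.83 ± 0.22 (SE), adjusted p = 0.000449, where 2.1% were called. These comparisons share their untreated libraries with the B12 comparisons.

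**Figure D2:**
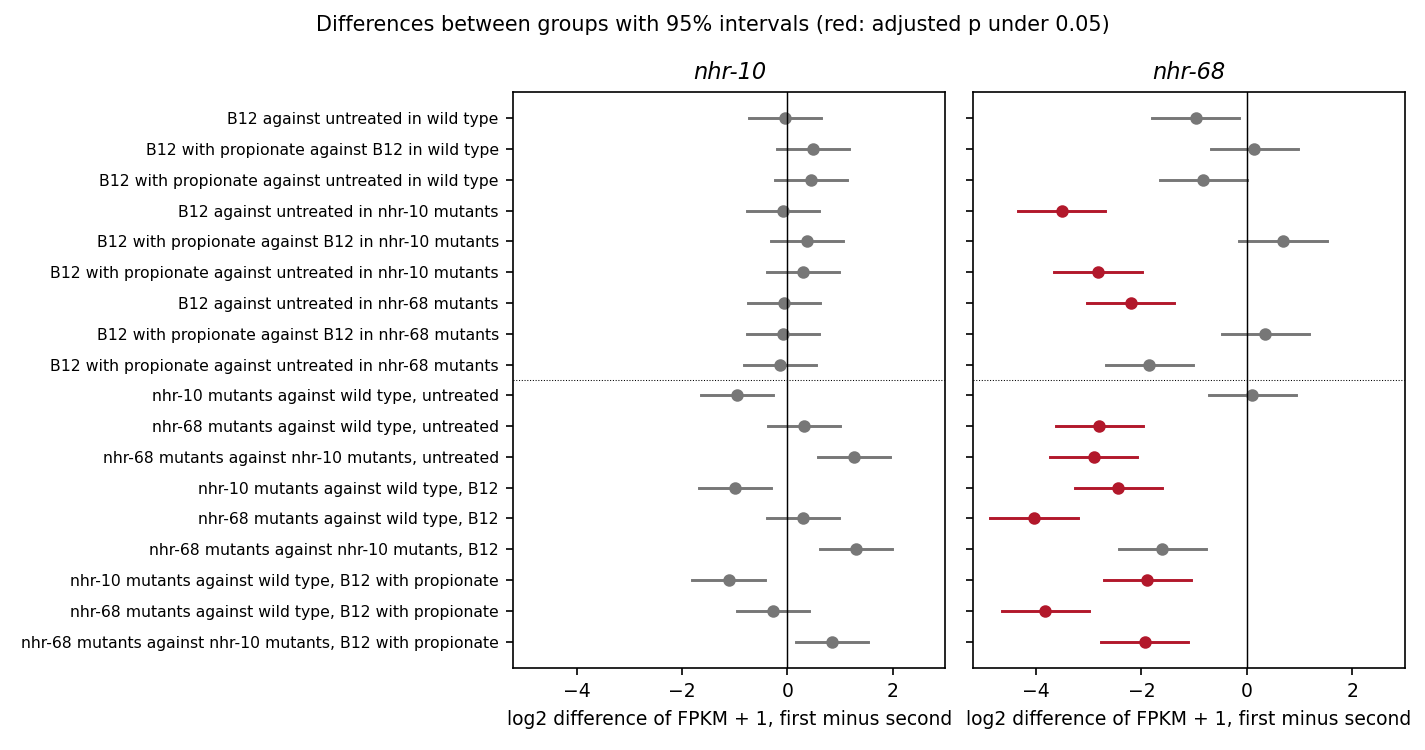
Log2 differences of FPKM + 1 for nhr-10 (left) and nhr-68 (right) with 95% intervals from limma; treatment comparisons stand above the dotted line and genotype comparisons below it, and red marks an adjusted p under 0.05. No treatment comparison of nhr-10 is red, against 3 of 9 for nhr-68, and 7 of 9 genotype comparisons of nhr-68 are red.

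Between nhr-10 mutants and wild type nhr-68 was called lower on B12 and on B12 with propionate, and not untreated; the test of that change is the difference of responses given above, which was not called. Untreated, the nhr-10 mutants held 111% of the wild type mean of nhr-68, a log2 difference of 0.11 with a 95% interval from -0.72 to 0.93 and limma adjusted p = 0.9. Its sign turned without replicate 2 of either group (-0.04 without the wild type library and -0.30 without the mutant one) and, at -0.03, with libraries rescaled by median ratios. On B12 the nhr-10 mutants held 18.4% of the wild type mean. That difference was -2.44 ± 0.38 (SE), adjusted p = 0.00392, where 9.68% of all genes were called. On B12 with propionate they held 26.4%, with -1.89 ± 0.38, adjusted p = 0.0107, where 7.19% were called. No library of the nhr-10 mutants on either treatment reached the lowest wild type library. Over the mean of the treatments the log2 difference was -1.41 ± 0.22 (SE), limma adjusted p = 0.00123, where 15.3% were called. The exact permutation test within treatment gave p = 0.037, and 0.0635 after adjustment over the 12 such tests. With the stage axes in the fit the difference over the mean was -0.655 and uncalled (limma adjusted p = 0.79).

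Single libraries and the stage axes changed these calls. On B12 the call ended without replicate 2 of the wild type (adjusted p = 0.0506) or replicate 1 of the nhr-10 mutants (adjusted p = 0.0557), and on B12 with propionate without replicate 2 of the wild type (adjusted p = 0.0729) or replicate 1 of the nhr-10 mutants (adjusted p = 0.0522). With the stage axes in the fit the B12 difference was -0.80, adjusted p = 0.989, and the one with propionate was -1.99, adjusted p = 0.19. In the B12 comparison 2 of 6 moulting genes and 2 of 6 vitellogenins were also called higher in the nhr-10 mutants, where 9.68% of all genes were called. Vitellogenin sums there were 3305 to 8130 FPKM against 628.6 to 819.4 FPKM in wild type. With propionate 5 of 6 moulting genes were called higher and no vitellogenin was called, where 7.19% of all genes were called. With propionate the vitellogenin sums were 103.8 to 1213 FPKM in the nhr-10 mutants and 904.7 to 3519 FPKM in wild type. The part of stage in these nhr-68 differences was not tested. The summed intestine level was 1557 to 1768 FPKM in nhr-10 mutants on B12 and 1135 to 1218 FPKM in wild type on B12, and 1 of 7 intestine genes was called, in the higher direction. With propionate it was 1167 to 1194 FPKM in the mutants and 1065 to 1518 FPKM in wild type, where limma called 0 of the 7 and 1 was lower at an unadjusted p under 0.05. The part of the intestine level in these differences was not tested either. In whole animals, fewer cells that express a gene and less transcript per cell cannot be told apart.

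In its own mutants nhr-68 was reduced in every treatment. The nhr-68 mutants held 13.5% of the wild type mean untreated, 4.24% on B12 and 5.56% with both agents. The log2 differences were -2.80, -4.04 and -3.82, with limma adjusted p = 0.003, 0.000193 and 0.000238, where 6.02%, 9.84% and 3.13% of all genes were called. Over the mean of the treatments the difference was -3.55 ± 0.22 (SE), adjusted p = 1.34e-06, with an exact permutation p of 0.00926, the smallest possible. With the stage axes in the fit the difference over the mean was -2.35 and no longer called (adjusted p = 0.172), and the untreated and B12 differences were -1.71 (adjusted p = 0.54) and -2.23 (adjusted p = 0.904). The untreated call also ended, at adjusted p = 0.0605, without replicate 2 of the nhr-68 mutants, and the call with both agents, at adjusted p = 0.0596, with the compared groups alone.

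Directly compared, nhr-68 mutants held less nhr-68 transcript than nhr-10 mutants untreated and with propionate. The log2 difference of nhr-68, nhr-68 mutants minus nhr-10 mutants, was -2.91 untreated (limma adjusted p = 0.00275), -1.60 on B12 (adjusted p = 0.261) and -1.93 with propionate added (adjusted p = 0.0318), where 0.559%, 0.141% and 1.28% of genes were called. The untreated call was lost without replicate 2 of either mutant (adjusted p = 0.0601 without the nhr-10 library and 0.0543 without the nhr-68 library). The call with propionate was lost without replicate 2 of the nhr-10 mutants (0.335) or either library of the nhr-68 mutants (0.261 and 0.0627). With the stage axes in the fit it was -1.12 and uncalled (adjusted p = 0.818). The compared groups alone ended both calls (adjusted p = 0.0585 untreated and 0.126 with propionate). Over the mean of the treatments the difference was -2.15 ± 0.22 (SE), adjusted p = 0.000144, where 10.7% were called, and nhr-10 differed the other way by 1.14 ± 0.18, adjusted p = 0.00376. Untreated nhr-68 mutants, at 11.6 to 14.95 FPKM, overlapped with nhr-10 mutants on B12, at 5.18 to 13.06 FPKM.

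Ordered by mean level, the 9 groups fell into different patterns for the 2 genes. For nhr-10 the 6 groups of wild type and nhr-68 mutants came first, at means from 16.0 to 24.2 FPKM, and each overlapped its neighbour in the order. The only neighbours that did not overlap were wild type on B12 and nhr-10 mutants on B12 with propionate, the step down to the deletion. For nhr-68 untreated nhr-10 mutants (109.6 FPKM) and untreated wild type (98.35 FPKM) led and overlapped. Wild type on B12 with propionate (54.7 FPKM) and on B12 (49.5 FPKM) followed, without overlap. Next came an overlapping run of nhr-10 mutants on B12 with propionate (14.5 FPKM), untreated nhr-68 mutants (13.3 FPKM) and nhr-10 mutants on B12 (9.12 FPKM). Treated nhr-68 mutants stood last, at 3.05 FPKM with propionate and 2.10 FPKM on B12 without it.

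The balance between the receptors differed by group. In untreated wild type nhr-68 read 6.28 and 5.87 times the FPKM of nhr-10 in the 2 libraries. The ratio was 2.46 and 4.12 in wild type on B12 and 1.6 and 3.76 with propionate. In nhr-10 mutants it ran from 12.9 and 14.2 untreated to 0.714 and 1.76 on B12. In nhr-68 mutants every library had more nhr-10 than nhr-68 transcript per length, with ratios from 0.084 to 0.793.

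Within the receptor family nhr-68 ranked 2 of 257 by mean level in every wild type group and in untreated nhr-10 mutants, where the family median was between 2.025 and 2.795 FPKM. It dropped to rank 35 in nhr-10 mutants on B12 and to rank 128 in nhr-68 mutants on B12. nhr-10 ranked 8 to 19 in wild type and 9 to 11 in nhr-68 mutants. Of the 178 family members that passed the filter, 2 were called for B12 in wild type, both lower, which is 1.12% of them against 0.616% of all genes. These were nhr-114 and nhr-156. nhr-114, a receptor known to act on genes of the methionine and S-adenosylmethionine cycle when B12 is low, went from 149.9 to 39.48 FPKM, a log2 difference of -1.94 (limma adjusted p = 0.021). nhr-156 had a difference of -1.42 (adjusted p = 0.0111). nhr-68 had the 5th lowest difference of the 178 in that comparison and nhr-10 stood at 110.

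In nhr-10 mutants the B12 order changed. nhr-68 had the lowest difference of all 178 receptors, followed among the called ones by nhr-114 (-2.40, limma adjusted p = 0.0033) and nhr-156 (-1.98, adjusted p = 0.00073), and these 3 were the only receptors called (1.69% of those tested against 0.783% of all genes). In nhr-68 mutants nhr-156 (-2.23, adjusted p = 0.000374), nhr-114 (-2.21, adjusted p = 0.00524), nhr-68 and nhr-137 (-1.48, adjusted p = 0.0488) were called lower (2.25% against 0.751%). nhr-114 and nhr-156 were thus called lower on B12 in each genotype. With the compared groups alone 0 receptors were called in wild type, 0 in nhr-10 mutants and 2 in nhr-68 mutants. That setting called 0, 1 and 62 of all tested genes in the same comparisons. For propionate against B12 in wild type limma called 0 receptors, with 13 at an unadjusted p under 0.05, and 0.411% of all genes. On B12, 8 receptors differed between nhr-10 mutants and wild type, 5 higher and 3 lower (4.49% of those tested against 9.68% of all genes), and of these nhr-68 had the largest difference. nhr-101 (-0.88, adjusted p = 0.0277) and nhr-41 (-1.15, adjusted p = 0.0231) were the others called lower. None of these 8 was called with the stage axes in the fit or with the compared groups alone. Those settings called 2 and 118 of all tested genes in that comparison, against 1507 in the main fit.

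**Figure D3:**
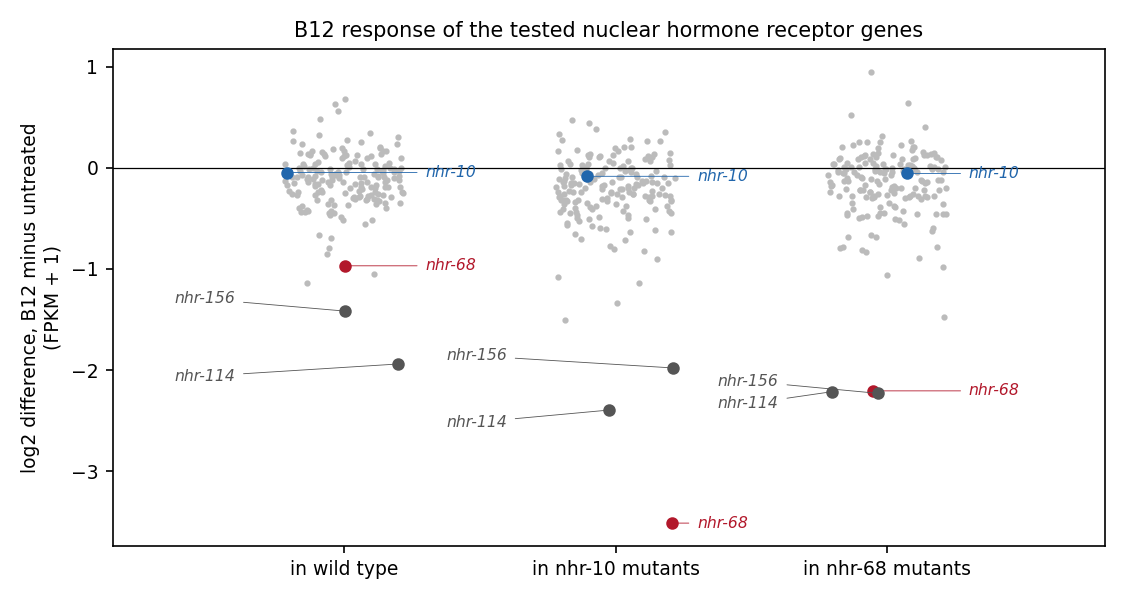
B12 minus untreated log2 difference of FPKM + 1 for each of the 178 tested nuclear hormone receptor genes (1 point each, spread sideways at random) in the 3 genotypes, with nhr-68 in red, nhr-10 in blue and nhr-114 and nhr-156 in dark grey. nhr-10 stays near 0 in all 3, and nhr-68 goes from -0.97 in wild type to -3.51 in nhr-10 mutants and -2.20 in nhr-68 mutants.

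Of the genes in the table the one nearest to nhr-68 is another receptor, and its transcript was lower in both mutants. nhr-101 lies on the same strand of chromosome V from 11570476 to 11572549 and ends 890 bp before nhr-68 starts. In untreated wild type nhr-101 was at 21.19 and 17.69 FPKM. It read 8.12 and 9.55 FPKM on B12 and 21.82 and 15.46 FPKM on B12 with propionate. With propionate nhr-101 thus overlapped its untreated range, which nhr-68 did not. The 12 mutant libraries lay between 3.97 and 10.21 FPKM.

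Over the mean of the treatments the difference of nhr-101 from wild type was -1.11 ± 0.13 (SE) in nhr-10 mutants and -1.08 ± 0.13 in nhr-68 mutants, with limma adjusted p = 0.000135 and 0.000157, in comparisons that called 15.3% and 30.8% of genes. In wild type alone the B12 difference of -1.05 and the propionate difference of 0.98 were not called (adjusted p = 0.0527 and 0.0705). Over the 3 genotypes they were -0.81 (adjusted p = 0.00268) and 0.53 (adjusted p = 0.0382), where 2.65% and 3.57% of genes were called. An annotated antisense gene, H12C20.7, lies nearer still, 449 bp before nhr-68, and was not analysed here. It overlaps nhr-101, and since it is not given whether strand was used, reads of the pair cannot be told apart. Beyond the 3′ end of nhr-68 the next genes were a pseudogene, WBGene00005982, at 0.5 FPKM or less, and srx-90, a chemoreceptor gene, at 0.08 FPKM or less, and neither was tested.

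Of the 4 genes nearest to nhr-10, 1 was called in each mutant, rpia-1 in nhr-10 mutants and odd-1 in nhr-68 mutants, where 15.3% and 30.8% of all genes were called. rpia-1, for ribose-5-phosphate isomerase, was higher in nhr-10 mutants over the mean of the treatments by 0.43 ± 0.09 (SE; limma adjusted p = 0.0095). odd-1, a zinc finger gene, had a difference of -0.59 ± 0.12 (adjusted p = 0.00332) in nhr-68 mutants and of -0.34 (adjusted p = 0.067) in nhr-10 mutants. B0280.7 and B0280.9 were not called in either mutant.

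The 5 shunt genes, listed from earlier work on this network, were read in the same libraries. acdh-1 encodes the acyl-CoA dehydrogenase that opens the shunt, ech-6 the enoyl-CoA hydratase, hach-1 the hydrolase, hphd-1 the dehydrogenase of the next step and alh-8 the aldehyde dehydrogenase that ends it. In wild type all 5 were called lower on B12 and all 5 higher when propionate was added, where 0.616% and 0.411% of all genes were called. The median log2 differences were -2.14 and 2.31, and the medians over all genes were -0.08 and 0.08. With the compared groups alone in the fit none of the 5 was called in either comparison. That fit called 0 of all tested genes in both, so it cannot set the shunt genes apart from other genes. acdh-1 went from 2549 and 2058 FPKM untreated to 65.45 and 116 FPKM on B12 and back to 2070 and 1397 FPKM with propionate. nhr-68 stood at -0.97 and 0.14 in those comparisons and nhr-10 at -0.05 and 0.50, and none of these 4 was called. Reads of acdh-1 and its close copy acdh-2 may have been divided between them by the counting.

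In neither mutant was a shunt gene called higher with propionate. By limma 0 of the 5 were called for propionate against B12 in nhr-10 mutants and 0 in nhr-68 mutants, and 1 and 5 of them were higher at an unadjusted p under 0.05. The medians were 0.17 and 0.91, where 7.24% and 0.417% of all genes were called. Of the 5, ech-6 in nhr-68 mutants had the lowest adjusted p, 0.0574 at a difference of 0.91, and with median-ratio scaling 1 of the 5 was called there. The change of that response from wild type was called for all 5 in nhr-10 mutants, where 8.49% of all genes were called. In nhr-68 mutants limma called 0 of the 5 and 0% of all genes, with all 5 and 1775 of the 15575 at an unadjusted p under 0.05, and the adjusted p of the 5 lay between 0.0586 for acdh-1 and 0.383 for alh-8. Set directly against each other, the responses of the mutants differed by a called amount in 0 of the 5, with 2 at an unadjusted p under 0.05, where 0.0321% of all genes were called. With the stage axes in the fit the change from wild type was called for 2 of the 5 in each mutant, and with the compared groups alone for 1 in nhr-10 mutants and 0 in nhr-68 mutants. Without replicate 2 of the wild type on B12 it was called for 3 in nhr-10 mutants, and without replicate 1 of the wild type with propionate for 1 in nhr-68 mutants. Untreated, when nhr-68 transcript was at 111% of wild type in nhr-10 mutants, all 5 were called lower there, with a median of -2.15, where 1.39% of all genes were called. acdh-1 was at 333.5 and 590.6 FPKM in those libraries and alh-8 at 205.5 and 179.9 FPKM against 487 and 461.7 FPKM in wild type. In untreated nhr-68 mutants 4 of 5 were called lower, with a median of -1.64, where 6.02% of all genes were called. alh-8, at 398.8 and 406.9 FPKM, was not called there (limma adjusted p = 0.316). With the stage axes in the fit 3 of the 5 were called in the untreated nhr-10 mutants and 0 in the untreated nhr-68 mutants. That fit called 24 and 8 of all 15575 genes there. With the compared groups alone 1 of the 5 was called in each, and 130 and 24 of all genes.

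On B12 acdh-1 was nearly absent from both mutants, at 0.07 and 0.25 FPKM in nhr-10 mutants and 0.42 and 0.36 FPKM in nhr-68 mutants. Wild type on B12 read 65.45 and 116 FPKM. With propionate acdh-1 stayed at 0.16 and 0.44 FPKM in nhr-10 mutants and at 1.68 and 2.75 FPKM in nhr-68 mutants. hach-1 separated the mutants untreated, at 50.04 and 66.77 FPKM in nhr-10 mutants and 140.5 and 145.4 FPKM in nhr-68 mutants. The log2 difference of hach-1 was 1.29 (limma adjusted p = 0.0203). alh-8 separated them too, by 1.06 (adjusted p = 0.00193). Of these 2 calls 0 remained with the compared groups alone, and 1 shunt gene was called without any one of the 4 libraries. nhr-68 itself had the opposite order to hach-1 and alh-8 in those libraries. It read 79.06 and 140.23 FPKM in untreated nhr-10 mutants and 14.95 and 11.6 FPKM in untreated nhr-68 mutants. acdh-1 had the same order as nhr-68, at 333.5 and 590.6 FPKM in nhr-10 mutants and 237.4 and 187.4 FPKM in nhr-68 mutants. The acdh-1 difference of -1.07 was not called (limma adjusted p = 0.141). ech-6 (-0.14) and hphd-1 (0.29) were not called either.

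**Figure D4:**
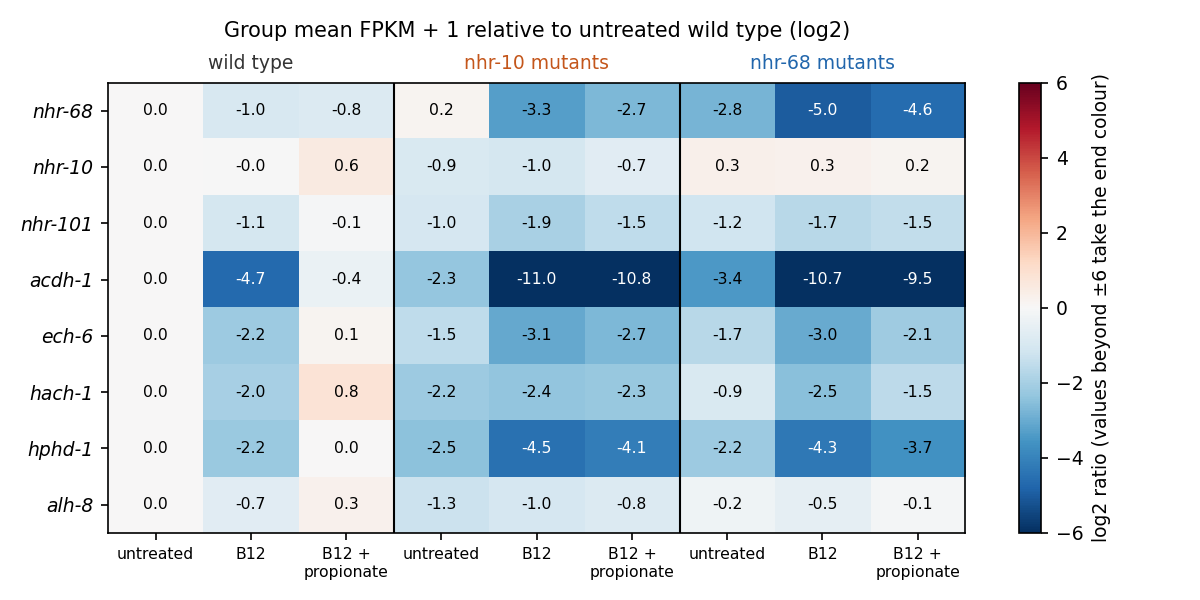
Log2 ratio of each group's mean FPKM + 1 to that of untreated wild type for both receptors, the neighbouring receptor nhr-101 and the 5 shunt genes, in the 3 genotypes and 3 treatments; colours saturate at 6 log2 units. In wild type the shunt genes and nhr-101 are lower on B12 and near or above their untreated level with propionate, and nhr-68 is at -0.98 on B12 and -0.83 with propionate.

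The genes most like nhr-68 were sought over the 12 libraries of wild type and nhr-10 mutants, in which nhr-68 is intact, among 10952 genes with a mean of at least 5 FPKM. Pearson's r of the log2 values was 0.94 for ugt-17, a UDP-glucuronosyltransferase gene, 0.94 for T05E12.6, 0.93 for ugt-28, of the same family as ugt-17, 0.92 for F10C2.5 and 0.91 for acdh-1. ugt-17 was at 44.76 and 40.38 FPKM in untreated wild type and 23.88 and 24.56 FPKM on B12. In nhr-10 mutants it went from 27.59 and 43.61 FPKM untreated to 6.87 and 13.84 FPKM on B12. F10C2.5 moved within a narrow range over the 12 libraries, from 14.08 to 17.94 FPKM. Its B12 differences of -0.02 in wild type and -0.25 in nhr-10 mutants were not called. The r values describe a pattern over libraries that share treatments and genotypes. Among the other shunt genes hphd-1 ranked 65 (r = 0.78), ech-6 107 (0.74), hach-1 1061 (0.49) and alh-8 2664 (0.31).

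For nhr-10 the same search ran over the 12 libraries of wild type and nhr-68 mutants and 10740 genes. It was led by ogt-1, for O-GlcNAc transferase (r = 0.90), R07G3.8 (0.89), the zinc finger transcription factor gene pqm-1 (0.87), Y22D7AR.6 (0.87) and F09F7.6 (0.86). ogt-1 moved within a narrow range there, from 28.01 to 45.05 FPKM, with its highest value in the same wild type library as nhr-10. nhr-68 had r = -0.16 with nhr-10 over these libraries, which include those in which it is deleted, and ranked 8449. In the search for nhr-68, over wild type and nhr-10 mutants, nhr-10 had r = 0.42 and ranked 1627 of 10952. Those libraries include the ones in which nhr-10 is deleted.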

How the data were processed

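RNA of 18 libraries was analysed from 1 table in which the authors deposited FPKM values for 20953 genes, 1 column per library. Bowtie2, HISAT and RSEM were used on build WBcel235, per the submitters' processing notes; for versions, filters and strand the entry is: not given in the sources used here. Reads that fit several genes are divided among them by RSEM's estimate, so values of near-identical copies are uncertain, and FPKM moves with a few abundant genes. The table holds no counts: fragments were estimated from the step between low FPKM values of single-transcript genes (lengths shortened by 40 bp), and cover counting error only.

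The 15575 genes that reached 1 FPKM in 2 or more libraries were put on log2(FPKM + 1), which understates changes of low genes, and fitted with limma 3.58.1 in R 4.3.3: 1 mean for each of 9 groups, an intensity trend, 9 residual and 3.60 prior degrees of freedom, and Benjamini-Hochberg adjustment over all genes of a comparison. The script was tested on simulated data. Exact two-sided permutation tests (216 arrangements, 12 tests) shuffled libraries within treatment or genotype. Means carry the SD of 2 libraries, differences limma's SE. Coordinates and names come from Ensembl release 115 of WBcel235, which lacked 208 of the table's identifiers.

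The stage axes are the leading principal components of 179 collagen, moulting and vitellogenin genes (62.8% and 25.3% of their variance). Alternatives were median-ratio scaling, the compared groups alone, a pseudocount of 0.1, every gene kept whatever its level, the replicate number as a block, no intensity trend, the stage axes as covariates, and each library left out. Named are both receptors, the 5 shunt genes, the 5 genes most like each receptor, the 2 nearest annotated genes on each side, and up to 5 called receptors per comparison; a part of that rule on protein similarity was not run, and no sequence was used here. Receptors, lists and tests were chosen with earlier results of these data known. Marker lists were intestine, body wall muscle, pharynx, neurons, germline, sperm, moulting genes and vitellogenins; summed over libraries, muscle lay between 2013 and 3379 FPKM, pharynx 169.9 and 295.5, neurons 303.7 and 480.2, germline 398.5 and 762.7 and sperm 183.2 and 305.1.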

Additional observations from a re-analysis of the deposited data

Results flagged for a closer look

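The response of nhr-68 to treatment differed between genotypes in 4 contrasts by the interaction term of the limma fit at an unadjusted p under 0.05, and none of the 4 passed adjustment over all genes. The B12 response in nhr-10 mutants differed from that in wild type by -2.54 (unadjusted p = 0.000439, adjusted p = 0.207). The response to B12 with propionate, against untreated, differed by -1.997 (unadjusted p = 0.00279, adjusted p = 0.235). The B12 response in nhr-68 mutants differed from that in wild type by -1.24 (unadjusted p = 0.0398, adjusted p = 0.834) and from that in nhr-10 mutants by 1.31 (unadjusted p = 0.0312, adjusted p = 1). In the contrast of -2.54 all 15 other settings kept the direction, with values from -3.14 to -1.63. No interaction of nhr-10 reached that level. The smallest number of nhr-68 fragments in these groups was about 32, in nhr-68 mutants on B12. Groups of 2 libraries are too small for a test of single libraries that stand apart.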

How the results depend on the processing

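None of the called differences of either receptor turned its direction in any alternative; how often they stayed called was uneven. Of 243 refits of the 17 called results, 214 kept the call and 29 lost it. The B12 difference of nhr-68 in nhr-10 mutants kept its call in every setting but 1: with the compared groups alone it was -3.51 with 2 residual degrees of freedom. The same setting ended the calls of nhr-68 between nhr-10 mutants and wild type on B12 (-2.44) and with both agents (-1.89). With both stage axes as covariates these were -0.80 and -1.99, and the differences over the mean of treatments in each receptor's own mutants were -0.89 for nhr-10 and -2.35 for nhr-68, all uncalled; the cause was not tested. Uncalled differences turned their sign as follows, the cause again not tested. Median-ratio scaling gave 0.046 for nhr-10 on B12 in wild type and in nhr-10 mutants alike, 0.030 over the genotypes, and -0.025 for nhr-68 between untreated nhr-10 mutants and wild type. The stage axes gave 0.175 for nhr-10 on B12 in nhr-10 mutants, 0.086 in nhr-68 mutants and 0.025 over the genotypes; -0.25 for nhr-10 and -0.38 for nhr-68 with propionate against B12 in nhr-10 mutants; -0.078 for nhr-10 with both agents against untreated there; and -0.070 for nhr-68 with propionate against B12 in nhr-68 mutants.

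Leaving out 1 library leaves a group with 1, which is taken to vary like the others. For nhr-10 on B12 the differences then ran from -0.37 to 0.28 in wild type, -0.39 to 0.22 in nhr-10 mutants, -0.156 to 0.044 in nhr-68 mutants and -0.170 to 0.047 over the genotypes. With propionate against B12 they ran from -0.062 to 1.05 in wild type and -0.194 to 0.044 in nhr-68 mutants, and with both agents against untreated from -0.11 to 1.01 in wild type and -0.014 to 0.597 in nhr-10 mutants. Between nhr-68 mutants and wild type nhr-10 ran from -0.021 to 0.631 on B12, -0.825 to 0.292 with propionate and -0.069 to 0.30 over the mean. nhr-68 ran from -2.39 to -2.02 on B12 in nhr-68 mutants, and between nhr-10 mutants and wild type from -0.30 to 0.52 untreated, -3.03 to -1.84 on B12 and -2.25 to -1.54 with propionate. Leaving out replicate 2 of the wild type on B12 with propionate, or median-ratio scaling, brought the difference of nhr-10 in its own mutants with propionate past the threshold (adjusted p = 0.0113 and 0.0329), while without replicate 1 of that group it was -0.557 (adjusted p = 0.266); median-ratio scaling also brought that on B12 past it (adjusted p = 0.0376).

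Deviations of same-numbered libraries correlated between -0.379 and 0.563 over 36 pairs of groups, median 0.0801, and 15 were over 0.1. With 2 libraries in a group this check cannot decide whether replicate numbers pair the libraries. With the replicate number as a block the B12 difference of nhr-68 in nhr-10 mutants was -3.51 (adjusted p = 0.000408) and in wild type -0.97 (adjusted p = 0.358). The block changed 1 call of nhr-10 or nhr-68: nhr-68 in nhr-68 mutants with both agents against untreated passed, at -1.85 (adjusted p = 0.0293). Depth limits nhr-68 most in nhr-68 mutants on B12, where counting error alone reached 17.7%.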
